A study of Mus musculus with 4 samples.

Results

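The DNA replication and S phase genes are a list of 39 mouse gene symbols, with no measured value in the rule. The list holds the helicase subunits Mcm2 to Mcm7 and the factors that load, activate or restrain them. It also holds the synthesis enzymes and their clamp, the suppliers of nucleotides, and the chromatin assembly and histone factors. The rest are the fork protection and repair genes and 2 regulators, Ccne2 and E2f8. Each of the 39 symbols was found once among the 32285 features of the deposited matrices. They were followed in 4 single-cell RNA libraries of CD8 T cells from tumour-draining lymph nodes of C57BL/6 mice, taken on day 14 after tumour implantation and sorted as CD44+, CD90.1+ and CD8+. The C6M9 group carried low affinity GP33 and the M9 group high affinity GP33, with 2 libraries each; GP33 is a viral peptide recognised by CD8 T cells, and CD90.1 is an allele of the surface protein Thy1 that is widely used to mark transferred T cells. The labels give no genotype or treatment beyond these, and do not say what carries GP33. The sorted cells came from 35 mice for C6M9 and 10 mice for M9, and no cell is tied to a mouse, so the library was the replicate and the p-values here measure the spread between libraries.

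Before a cell copies its DNA, the origin recognition complex, Cdc6 and Cdt1 load the Mcm2 to Mcm7 ring onto origins during G1, and geminin (Gmnn) prevents reloading later. Cdc45 and the GINS complex, to which Gins2 belongs, turn the loaded ring into the active helicase; primase (Prim1) and polymerase alpha (Pola1) start each strand, and the sliding clamp Pcna, placed by clamp loaders such as Rfc2, holds the polymerases. Most of these genes are targets of the E2F transcription factors, whose activity rises when a cell passes from G1 into S phase, and CD8 T cells that meet antigen through the T cell receptor (TCR) enter a phase of very rapid division.

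The E2F consensus was therefore read in the promoters of the members. RefSeq promoter windows (GRCm38.p6, 250 bases before and 50 after each start) were at hand for 29 of the 39 members, in 33 windows. The letters TTTCCCGC, TTTCGCGC, TTTGCCGC or TTTGGCGC, on either strand, were found in 11 of the 29 members (37.9%), against 2.6% of all 27025 genes with a window. Of 60 matched genes among 72 other DNA replication genes, 35% held them, and of 12 matched mitotic genes none did. The mitotic genes held the letters TTTGAA or TTCGAA, on either strand, in 9 of 12 genes (75%), against 24.1% of the members and 21.7% of all genes; these are the letters of the CHR element, known from promoters of genes used in G2 and mitosis. A match is a description of letters, not of a bound site. The stretches shown are upstream of genes to which the results return: Mcm5, Mcm6 and Dtl passed the test in TCR-engaged cells without division genes, and Pola1 and Casp8ap2 did not. Capitals mark the matching letters, which in Mcm5 are 2 overlapping matches, 1 on each strand.
Mcm5 (chr8:75109322-75109401, plus strand): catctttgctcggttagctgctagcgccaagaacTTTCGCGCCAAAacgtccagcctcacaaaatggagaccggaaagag
Mcm6 (chr1:128359709-128359788, minus strand): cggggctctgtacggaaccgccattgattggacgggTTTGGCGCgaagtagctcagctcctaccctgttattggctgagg
Dtl (chr1:191575545-191575624, minus strand): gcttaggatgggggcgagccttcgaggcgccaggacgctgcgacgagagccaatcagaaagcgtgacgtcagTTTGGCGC
Pola1 (chrX:93632250-93632329, minus strand): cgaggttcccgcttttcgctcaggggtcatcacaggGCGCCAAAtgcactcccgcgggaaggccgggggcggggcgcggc
Casp8ap2 (chr4:32615258-32615337, plus strand): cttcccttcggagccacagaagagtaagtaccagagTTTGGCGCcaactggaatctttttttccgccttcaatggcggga
Counted from the match nearest the start, the letters ended 141 bases before the start in Mcm5, 39 in Mcm6, 130 in Pola1 and 168 in Casp8ap2, and in Dtl they touched the start. Mcm6 held 2 more matches farther upstream, outside the stretch shown. Mcm3, Mcm7, Cdc6, Clspn, Hells and Uhrf1 also held the letters. Neither the Ung nor the Rrm2 window held the letters.

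After filtering, 9786 T cells were kept, with 31484798 to 70982200 unique molecular identifiers (UMIs, each a counted RNA molecule) per library. There were 2854 and 1673 cells in the C6M9 libraries and 4082 and 1177 cells in the M9 libraries, with medians of 13860 and 20375 UMIs per cell in the C6M9 libraries and 13172 and 19941 UMIs per cell in the M9 libraries. The T cell markers Cd3d, Cd3e, Cd3g, Cd8a, Cd8b1, Trac and Thy1 were detected in every library, with sums of 4893 to 5404 counts per 1000000 UMIs (CPM). Libraries shared 0 to 4 barcodes by pair. Cells were called dividing when Mki67 and Top2a, a proliferation marker and a topoisomerase of dividing cells, summed to 2 or more UMIs, and without division genes when the sum was 0. Neither gene is a member. They were called TCR-engaged when Tnfrsf4, Tnfrsf9 and Egr3, genes induced by TCR signals, summed to 2 or more UMIs. Of the T cells, 14.1% and 20.3% in the C6M9 libraries and 30.5% and 28.9% in the M9 libraries were TCR-engaged. Shares at equal depth were read after thinning each cell to 5000 UMIs, which left out 10 to 48 shallower T cells per library.

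In every library each of the 39 members was higher in dividing cells than in cells without Mki67 and Top2a. The 39 genes together made up 4544 and 3754 CPM in the C6M9 libraries and 3953 and 4059 CPM in the M9 libraries in dividing cells, against 760.2 and 759 CPM in the C6M9 libraries and 834 and 827 CPM in the M9 libraries in cells without. No test was made of this difference, since division genes chose the cells. At 5000 UMIs per cell, 10 or more member UMIs were seen in 62.3% and 51.5% in the C6M9 libraries and 46.6% and 38.5% in the M9 libraries of dividing cells, against 2.04% and 1.60% in the C6M9 libraries and 3.09% and 3.41% in the M9 libraries of cells without. The members differed widely in how closely they followed division. E2f8, an E2F that represses replication genes late in S phase, stood at 27.9 to 38.1 CPM in dividing cells and 0.152 to 0.324 CPM in cells without, a ratio of 118 to 163 in the 2 libraries with more than 3 UMIs outside dividing cells. Rrm2, the regulated small subunit of ribonucleotide reductase that makes deoxynucleotides, ranged over 183 to 258 CPM in dividing cells and 2.59 to 3.50 CPM in the others, a ratio of 59.1 to 99.8. Rad51ap1 (ratio 52.5 to 66.5), a DNA repair factor, Cdc6 (ratio 36.9 to 65.9) and Cdc45 (ratio 24.1 to 51.0) also lay near 0 outside dividing cells. In 11 members the ratio exceeded 10 in every library that had more than 3 UMIs outside dividing cells: those 5 and Exo1, Uhrf1, Clspn, Dscc1, Brip1 and Ccne2. In the 4 members Casp8ap2, Atad2, Rfc2 and Usp1 it stayed under 3. Casp8ap2, a factor linked to histone gene transcription, had 92.3 to 114 CPM in dividing cells and 54.6 to 60.2 CPM in the others. Atad2, a chromatin ATPase, had 148 to 169.5 CPM in dividing cells and 64.9 to 78.5 CPM in the others. Dividing cells held 98.4 to 99.4% of all Rrm2 UMIs of a library but 61.5 to 76.0% of the Casp8ap2 UMIs, where their share of all UMIs was 46.5 to 64.2%. Dividing cells were also deeper, with median UMIs of 32562 and 43088 in the C6M9 libraries and 24360 and 30498 in the M9 libraries, against 10693 and 14556 in the C6M9 libraries and 11249.5 and 16169 in the M9 libraries in cells without.

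**Figure D1:**
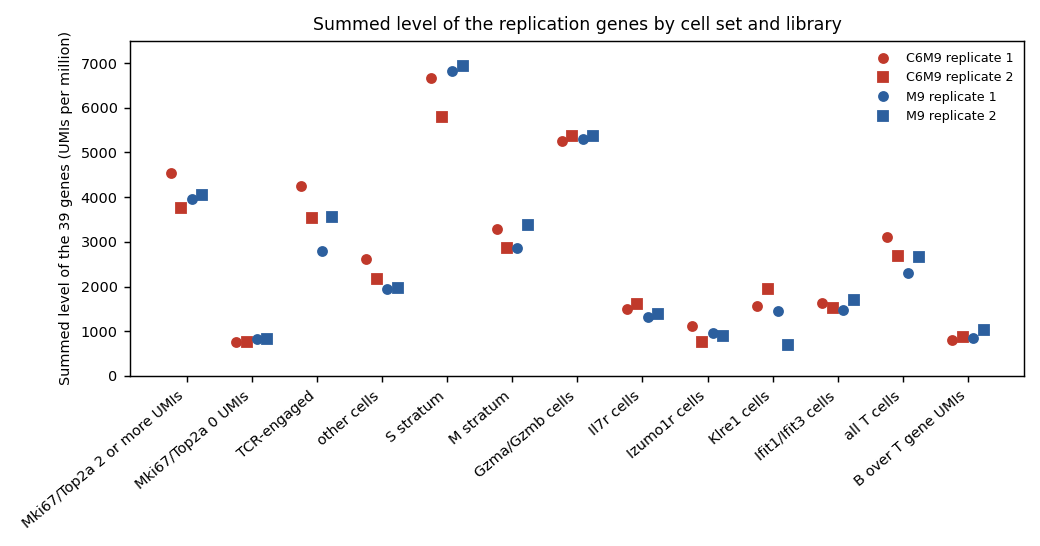
Summed level of the 39 replication genes, in counts per 1000000 UMIs, on the vertical axis for 13 cell sets; each point is 1 library, red for C6M9 and blue for M9, circles for replicate 1 and squares for replicate 2. The S stratum and the Gzma/Gzmb cells stand highest, and the cells without Mki67 and Top2a lie between 759 and 834 in every library.

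Within dividing cells, all 39 members were higher in cells rich in replication histone RNA than in cells rich in mitotic RNA. The S stratum held dividing cells in the upper tertile of the score of 10 replication histone genes and not in that of 13 mitotic genes, and the M stratum held the converse. No member belongs to either list. Both lists hold genes of cell cycle phases, so a higher level of S phase genes in the S stratum was to be foreseen from that choice. The test therefore gives the size of each difference, and its calls are no independent support. The members summed to 6667 and 5799 CPM in the C6M9 libraries and 6824 and 6933 CPM in the M9 libraries in the S stratum, against 3287 and 2868 CPM in the C6M9 libraries and 2870.4 and 3375 CPM in the M9 libraries in the M stratum. By edgeR's quasi-likelihood test with library as a block (8 sums from 4 libraries; Benjamini-Hochberg adjustment over all 10655 genes tested, called below 0.05), 39 of 39 members were called higher and 0 lower, where 19.2% of all genes were called higher and 16.1% lower. Their median log2 difference was 1.16, against 0.01 over all genes. By function the medians were 1.99 for the regulators, 1.36 for fork protection and repair and 1.08 for helicase loading and its control. They were 1.03 for chromatin, 1.00 for nucleotide supply and 0.98 for synthesis. In the S stratum median UMIs per cell were 51251 and 62154 in the C6M9 libraries and 35997 and 55404 in the M9 libraries, and in the M stratum 26521 and 33465 in the C6M9 libraries and 25428 and 36496 in the M9 libraries. The T cell markers summed to 3782 to 4151 CPM in the S stratum and 4353 to 4955 CPM in the M stratum, the B cell markers to 13.1 to 16.6 CPM in the S stratum and 20.9 to 25.6 CPM in the M stratum, and the myeloid and dendritic markers to 75.8 to 197 CPM in the S stratum and 81.5 to 115 CPM in the M stratum. The part of depth and of these markers was not tested.

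The steepest members were not the most abundant ones. E2f8 had 71.0 and 53.3 CPM in the S stratum of the C6M9 libraries and 58.9 and 69.0 CPM in the S stratum of the M9 libraries, against 10.5, 12.3, 11.9 and 15.4 in the M stratum of the same libraries (log2 difference 2.37, SE 0.11, adjusted p = 5.89e-11). Ung, the glycosylase that removes uracil from DNA, had 84.3 and 80.2 CPM in the S stratum of the C6M9 libraries and 87.7 and 80.6 CPM in the S stratum of the M9 libraries, against 13.3, 14.6, 15.9 and 29.4 in the M stratum of the same libraries (log2 difference 2.30, SE 0.14, adjusted p = 1.07e-09). Every S stratum value of both genes lay above every M stratum value. Clspn, the checkpoint adaptor claspin that travels with the fork, had 189 and 152 CPM in the S stratum of the C6M9 libraries and 201 and 203 CPM in the S stratum of the M9 libraries, against 54.7, 45.5, 46.7 and 56.9 in the M stratum of the same libraries (log2 difference 1.87, SE 0.08, adjusted p = 1.46e-11). Pcna had 606 and 534 CPM in the S stratum of the C6M9 libraries and 579 and 590.1 CPM in the S stratum of the M9 libraries, against 231, 199, 194 and 232 in the M stratum of the same libraries (log2 difference 1.44, SE 0.06, adjusted p = 2.34e-11). The values of the 2 strata did not overlap in any of the 39 members, and how many of all genes did so was not counted. The repair exonuclease Exo1 (1.72), the cyclin Ccne2 (1.62), the helicase Brip1 (1.59) and Cdc45 (1.67) followed with log2 differences over 1.5. Rfc2 had 149 and 139.5 CPM in the S stratum of the C6M9 libraries and 153 and 142 CPM in the S stratum of the M9 libraries, against 95.9, 97.5, 85.5 and 94.5 in the M stratum of the same libraries (log2 difference 0.65, SE 0.07, adjusted p = 4.38e-06), the smallest difference. Casp8ap2 (0.68), the histone chaperone Nasp (0.71) and Rrm1 (0.75), the large subunit of ribonucleotide reductase, were close to it. Of the 72 other replication genes, 64 were called higher and 2 lower, and the 4 of smallest p were Brca1 (2.24), E2f1 (2.02), Ccne1 (1.58) and Chaf1a (1.48), all as log2 differences.

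**Figure D2:**
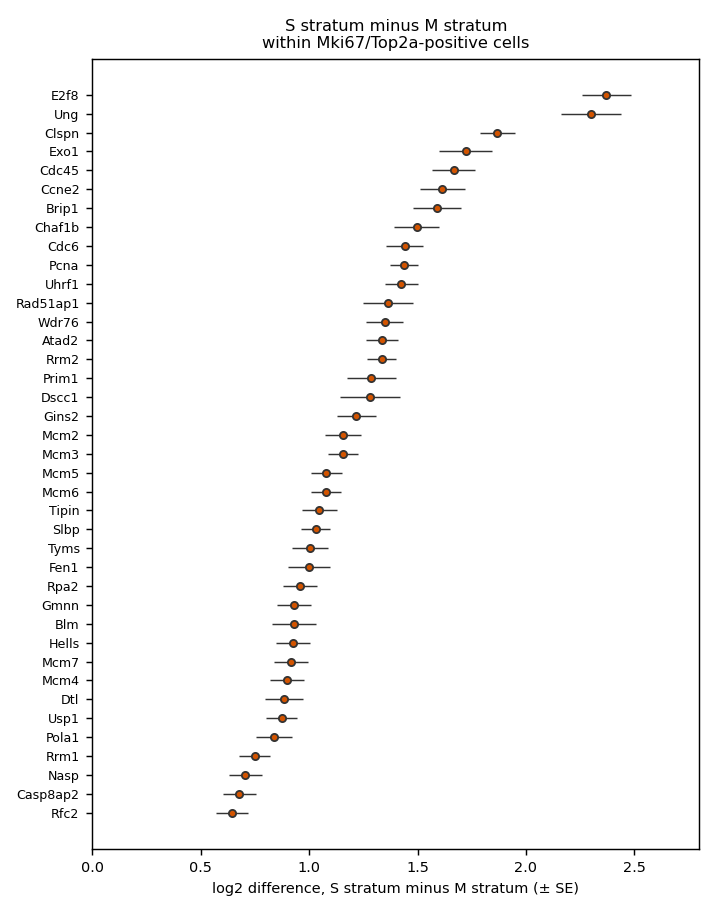
Log2 difference between the S stratum and the M stratum within Mki67/Top2a-positive cells on the horizontal axis for each of the 39 members, with bars for the SE of the fit over 4 libraries. All 39 points lie right of 0, with E2f8 and Ung at the top (2.37 and 2.30) and Rfc2 at the bottom (0.65).

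The strata also separated members by where they were highest. Among dividing cells in the upper tertile of both scores, of neither, of the histone score alone (the S stratum) and of the mitotic score alone (the M stratum), 27 members were highest in the S stratum in all 4 libraries. Ung was lower outside the S stratum, where its mean over libraries was 82.3 CPM. The mean was 32.1 CPM in cells high for neither score, 28.5 CPM in cells high for both and 18.5 CPM in the M stratum. Cdc6 likewise averaged 77.7 CPM in the S stratum and 35.5 CPM in cells high for both. In 5 members, Rrm1, Rrm2, Tyms, Pola1 and Brip1, the cells high for both scores had the highest level in 3 or 4 of 4 libraries. All 3 suppliers of deoxynucleotides are among them. Rrm1 averaged 244 CPM there and 215 CPM in the S stratum, and thymidylate synthase Tyms averaged 226 CPM there and 214 CPM in the S stratum. These levels are a description with no test.

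TCR-engaged cells without any UMI of Mki67 and Top2a had more RNA of part of the set. Of the 18 members called higher, 9 belonged to helicase loading and its control. By the same test within libraries, 18 of 37 tested members were called higher and 1 lower, where 18.8% of all 11087 genes were called higher and 15.1% lower; Exo1 and E2f8 did not pass the filter on low counts. Helicase loading and its control held Mcm2 to Mcm7, Cdc6, Cdc45 and Gins2, and also Gmnn and Dtl, which restrain loading. Of these 11 genes 9 rose, with a median log2 difference of 0.93. Of the 6 synthesis genes 2 rose (Prim1 and Pcna), and of the 3 nucleotide suppliers 1 rose (Rrm1). Of the 7 chromatin genes 3 rose (Nasp, Hells and Uhrf1) and 1 fell (Atad2), and of the 9 tested fork protection and repair genes 3 rose (Ung, Tipin and Usp1). The median over the 37 members was 0.41, against 0.01 over all genes. The 39 genes summed to 1142 and 1035 CPM in the C6M9 libraries and 942 and 926 CPM in the M9 libraries in the engaged cells without division genes, against 716 and 700.0 CPM in the C6M9 libraries and 781 and 789.5 CPM in the M9 libraries in the other cells without them.

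Mcm5, on chr8:75109569-75128439 (mm10, plus strand), had 43.5 and 31.8 CPM in engaged cells of the C6M9 libraries and 24.4 and 21.9 CPM in engaged cells of the M9 libraries, against 11.4, 8.91, 11.7 and 9.64 in other cells of the same libraries (log2 difference 1.46, SE 0.14, adjusted p = 8.03e-08). Mcm3, on chr1:20802968-20820312, had 73.9 and 60.8 CPM in engaged cells of the C6M9 libraries and 43.2 and 41.9 CPM in engaged cells of the M9 libraries, against 28.3, 25.5, 24.7 and 21.3 in other cells of the same libraries (log2 difference 1.08, SE 0.09, adjusted p = 1.97e-08). Mcm2, on chr6:88883474-88898780, had 28.3 and 29.1 CPM in engaged cells of the C6M9 libraries and 22.5 and 17.7 CPM in engaged cells of the M9 libraries, against 13.3, 10.1, 11.4 and 10.8 in other cells of the same libraries (log2 difference 1.08, SE 0.13, adjusted p = 1.15e-06). In these 3 genes every engaged value lay above every other value. The C6M9 engaged cells stood above the M9 engaged cells, a difference that was not tested in this cell set. These engaged cells numbered 102 and 87 in the C6M9 libraries and 565 and 105 in the M9 libraries. Mcm6 (log2 difference 0.64, SE 0.07, adjusted p = 1.84e-07) and Mcm7 (log2 difference 0.61, SE 0.12, adjusted p = 0.000494) rose less, and Mcm4 least of the ring (log2 difference 0.30, SE 0.10, adjusted p = 0.0287), being higher in 3 of 4 libraries. Gins2 rose (log2 difference 0.96, SE 0.21, adjusted p = 0.00114), as did Dtl (log2 difference 0.41, SE 0.10, adjusted p = 0.00457), the ubiquitin ligase adaptor that removes Cdt1 during S phase. Gmnn had a log2 difference of 0.26 and Cdc45 of 0.93, and neither was called.

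Ung, on chr5:114130386-114139323, had 25.2 and 21.5 CPM in engaged cells of the C6M9 libraries and 13.1 and 16.9 CPM in engaged cells of the M9 libraries, against 4.89, 6.59, 5.63 and 5.24 in other cells of the same libraries (log2 difference 1.68, SE 0.17, adjusted p = 1.45e-07). Nasp, a chaperone of histones H3 and H4 on chr4:116601052-116627941, had 104 and 86.8 CPM in engaged cells of the C6M9 libraries and 89.4 and 80.3 CPM in engaged cells of the M9 libraries, against 50.1, 49.9, 50.6 and 45.5 in other cells of the same libraries (log2 difference 0.87, SE 0.07, adjusted p = 3.23e-09), the smallest p of the set. Pcna had 103 and 98.4 CPM in engaged cells of the C6M9 libraries and 91.9 and 81.5 CPM in engaged cells of the M9 libraries, against 62.8, 72.3, 63.5 and 57.0 in other cells of the same libraries (log2 difference 0.55, SE 0.06, adjusted p = 9.33e-07). The engaged and other values of these 3 genes did not overlap. Hells, a chromatin remodeller, rose (log2 difference 0.90, SE 0.11, adjusted p = 2.81e-06), as did Prim1 (log2 difference 1.13, SE 0.16, adjusted p = 1.04e-05), Uhrf1, which brings DNA methylation to new strands (log2 difference 0.96, SE 0.19, adjusted p = 0.000501), and Tipin of the fork protection complex (log2 difference 0.62, SE 0.11, adjusted p = 0.000206). Smaller rises were those of Usp1 (log2 difference 0.35, SE 0.08, adjusted p = 0.00157), a deubiquitinase that acts on Pcna, and Rrm1 (log2 difference 0.39, SE 0.13, adjusted p = 0.0235).

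Cdc6, on chr11:98907801-98923940, had the largest log2 difference and the thinnest counts. It had 10 and 8 UMIs in engaged cells of the C6M9 libraries and 7 and 1 in those of the M9 libraries, against 6, 4, 7 and 2 UMIs in the other cells of the same libraries. This made 5.24 and 3.58 CPM in engaged cells of the C6M9 libraries and 0.795 and 0.384 CPM in engaged cells of the M9 libraries, against 0.381, 0.387, 0.383 and 0.284 in other cells of the same libraries (log2 difference 2.49, SE 0.58, adjusted p = 0.00216). The M9 engaged cells lay near the other cells and the C6M9 engaged cells well above them, a contrast that was not tested. In fits without either C6M9 library, Cdc6 did not pass the filter on low counts and was not tested.

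A second part of the set did not pass the test in these cells. Rrm2 had 4.19 and 1.79 CPM in engaged cells of the C6M9 libraries and 2.16 and 1.92 CPM in engaged cells of the M9 libraries, against 2.54, 4.07, 2.90 and 2.98 in other cells of the same libraries (log2 difference -0.35, SE 0.32, adjusted p = 0.438). Tyms had 15.7 and 10.3 CPM in engaged cells of the C6M9 libraries and 14.2 and 10.4 CPM in engaged cells of the M9 libraries, against 15.7, 12.01, 14.1 and 13.3 in other cells of the same libraries (log2 difference -0.10, SE 0.13, adjusted p = 0.662). Slbp, which binds histone messenger RNA, had 84.9 and 86.8 CPM in engaged cells of the C6M9 libraries and 71.9 and 69.6 CPM in engaged cells of the M9 libraries, against 76.7, 76.7, 73.9 and 70.03 in other cells of the same libraries (log2 difference 0.06, SE 0.07, adjusted p = 0.569). In all 3 genes the engaged and other values overlapped. Fen1, the flap endonuclease that trims Okazaki fragments (0.29), the clamp loader factor Dscc1 (0.45), Brip1 (0.41), Rad51ap1 (0.18), Casp8ap2 (0.16) and Ccne2 (0.53) were not called. The histone chaperone subunit Chaf1b (-0.02), the single-strand binding protein Rpa2 (-0.07), Pola1 (0.05), Rfc2 (0.07), Wdr76 (0.00), the helicase Blm (-0.12) and Clspn (-0.32) had log2 differences of either sign, none called. Atad2, on chr15:58094044-58135082, fell: it had 61.3 and 59.5 CPM in engaged cells of the C6M9 libraries and 53.3 and 56.5 CPM in engaged cells of the M9 libraries, against 69.0, 70.1, 78.1 and 79.5 in other cells of the same libraries (log2 difference -0.40, SE 0.07, adjusted p = 0.000273). It was lower in the engaged cells of 4 of 4 libraries, and the values did not overlap. A p that misses the threshold does not show that a gene was the same in both sets.

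**Figure D3:**
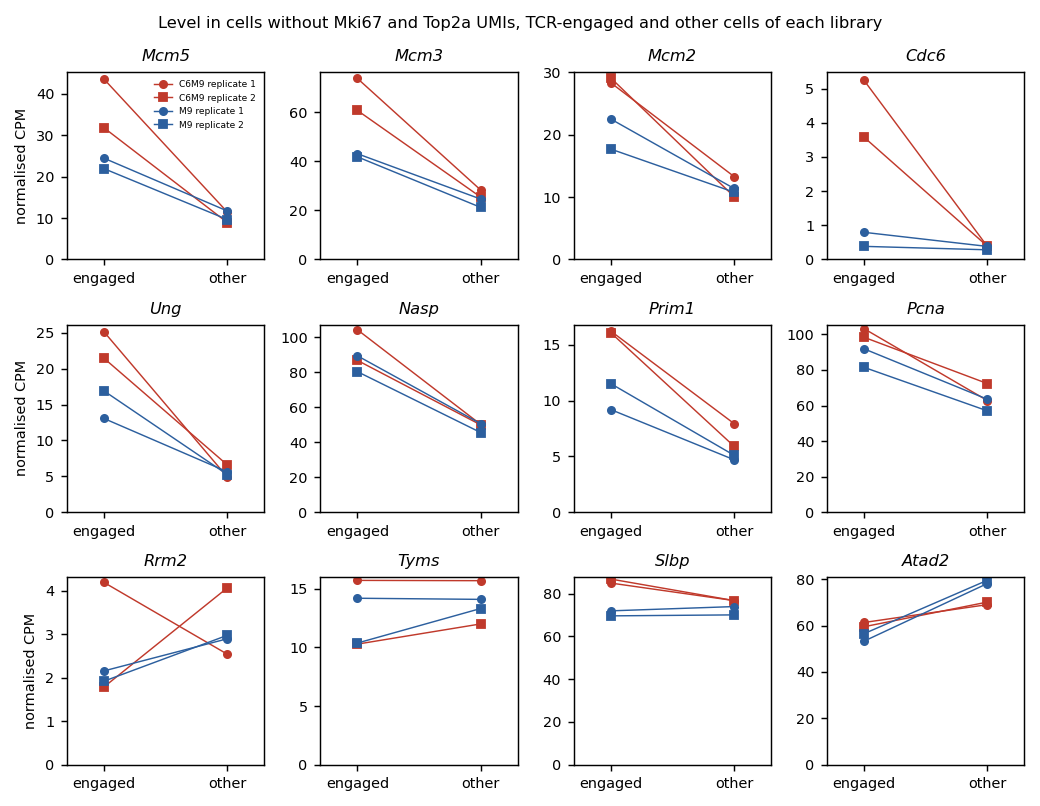
Normalised CPM on the vertical axis (from 0) for 12 members in cells without Mki67 and Top2a, with the TCR-engaged cells left and the other cells right; each line joins the 2 values of 1 library, red for C6M9 and blue for M9. Mcm5, Mcm3, Mcm2, Cdc6, Ung, Nasp, Prim1 and Pcna slope down to the right in every library, Atad2 slopes up, and Rrm2, Tyms and Slbp differ in direction between libraries.

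The calls were repeated with engagement called at equal depth. Engaged cells were called from 1 UMI of the 3 genes after each cell had been thinned to 5000 UMIs. Of the members 15 were called higher and 1 lower, where 2868 genes were called in either direction, against 3750 before. All 15 were among the 18. The log2 difference was then 1.10 for Mcm5, 1.54 for Ung, 0.70 for Nasp and -0.30 for Atad2. In all, 13 members were called higher under every alternative tried: Mcm2, Mcm3, Mcm5, Mcm6, Mcm7, Pcna, Prim1, Ung, Hells, Uhrf1, Nasp, Tipin and Usp1. How many of all genes stayed called in this way was not counted. Mcm4, Cdc6, Gins2, Dtl and Rrm1 were not called under at least 1 alternative. At 5000 UMIs per cell, a UMI of Mcm5 was seen among engaged cells without division genes in 10% and 17.2% in the C6M9 libraries and 9.59% and 8.57% in the M9 libraries, and among the other cells without them in 4.97% and 3.93% in the C6M9 libraries and 5.15% and 5.34% in the M9 libraries. Unthinned, the shares were 23.5% and 33.3% in the C6M9 libraries and 20.7% and 27.6% in the M9 libraries for engaged cells, and 10.8% and 12.3% in the C6M9 libraries and 10.4% and 14.8% in the M9 libraries for the other cells. At 5000 UMIs, 10 or more UMIs of the 39 genes were seen in 9% and 9.20% in the C6M9 libraries and 5.51% and 7.62% in the M9 libraries of these engaged cells, against 1.54% and 0.604% in the C6M9 libraries and 2.23% and 2.29% in the M9 libraries of the other cells. Among the few cells with more B cell than T cell gene UMIs, which numbered 8 to 20 a library at median depths of 3684 to 7143 UMIs, the 4 to 11 cells deep enough for thinning gave Mcm5 shares of 0% and 9.09% in the C6M9 libraries and 0% and 0% in the M9 libraries. Of 29 members with a promoter window, 14 were called higher here and 8 of these 14 held the E2F letters shown, as did 3 of the 14 that were tested and not called.

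The engaged cells without division genes had median UMIs of 15434 and 23514 in the C6M9 libraries and 14331 and 21533 in the M9 libraries, against 10464 and 14189 in the C6M9 libraries and 10320 and 15459.5 in the M9 libraries in the other cells without them. Markers of other lymphocytes moved in part with engagement. The 6 B cell markers summed to 15.5 to 19.8 CPM in engaged cells and 20.1 to 26.0 CPM in other cells. The 5 CD4 and regulatory T cell markers summed to 77.3 to 243 CPM in engaged cells and 75.3 to 146 CPM in other cells, mostly Tnfrsf18 and Ctla4, with Cd4 at 5.21 CPM or less and Foxp3 at 2.17 CPM or less in each library's engaged cells. The 4 NK and innate markers summed to 136 to 307 CPM in engaged cells and 95.3 to 195 CPM in other cells, nearly all of it Eomes, which CD8 T cells also express, with Ncr1 at 0 in engaged cells. The 6 myeloid and dendritic markers summed to 62.8 to 78.3 CPM in engaged cells and 63.1 to 79.5 CPM in other cells. The part of these cells and of depth in the result was not tested. Of 66 other replication genes tested, 28 were called higher and 3 lower, and those of smallest p were Dctpp1 (1.75), Dck (-0.94), Dut (0.57) and Rbbp7 (0.45), as log2 differences. Dctpp1 is a nucleotide pyrophosphatase, Dck the deoxycytidine kinase of nucleotide salvage, Dut the enzyme that removes dUTP, and Rbbp7 a histone-binding protein.

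Over all T cells, TCR-engaged cells had more of every member, but this depended on how engaged cells were called. The test called 39 of 39 members higher and 0 lower, where 28.5% of genes were called higher and 23.5% lower, with a median log2 difference of 0.71. Ung led the set with 48.5 and 46.7 CPM in engaged cells of the C6M9 libraries and 32.4 and 40.8 CPM in engaged cells of the M9 libraries, against 23.9, 20.7, 15.1 and 13.1 in other cells of the same libraries (log2 difference 1.20, SE 0.08, adjusted p = 1.54e-08). Tipin had 123 and 104 CPM in engaged cells of the C6M9 libraries and 82.1 and 90.3 CPM in engaged cells of the M9 libraries, against 68.4, 56.0, 51.2 and 45.7 in other cells of the same libraries (log2 difference 0.85, SE 0.05, adjusted p = 1.03e-08). The engaged cells had median UMIs of 39806 and 47947 in the C6M9 libraries and 18916 and 29292 in the M9 libraries, against 12582 and 17697 in the C6M9 libraries and 11657 and 17584 in the M9 libraries in other cells, and the call counts UMIs. The T cell markers summed to 4265 to 5283 CPM in engaged cells and 5158 to 5495 CPM in other cells, and the B cell markers to 14.0 to 17.9 CPM in engaged cells and 20.8 to 24.5 CPM in other cells. Called at equal depth, 7 members remained called higher (Mcm2, Mcm3, Mcm5, Mcm6, Pcna, Ung and Nasp). Genes called in either direction then numbered 3439, against 6641 before. Of the 39 members 26 had a positive difference, and the median was 0.06. The log2 difference was then 0.51 for Ung, -0.05 for Rrm2 and -0.16 for Clspn. Of engaged cells 64.7% and 64.6% in the C6M9 libraries and 38.5% and 50% in the M9 libraries were dividing, against 29.4% and 32.2% in the C6M9 libraries and 24.04% and 32.6% in the M9 libraries of other cells. With each cell thinned to 5000 UMIs and called dividing at 1 or more UMIs of Mki67 and Top2a, a cut that differs from the unthinned one, the shares were 57.5% and 48.7% in the C6M9 libraries and 33.9% and 36.8% in the M9 libraries for engaged cells, and 31.2% and 28.4% in the C6M9 libraries and 27.8% and 27.3% in the M9 libraries for other cells. Of 72 other replication genes 68 were called higher and 0 lower, with Dctpp1 (1.14) and Orc6 (0.81) of smallest p, as log2 differences.

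Among dividing cells, 25 of 39 members were called higher in the engaged cells and 0 lower, where 18.7% of genes were called higher and 12% lower, with a median log2 difference of 0.19. Ung had 53.9 and 51.6 CPM in engaged cells of the C6M9 libraries and 45.3 and 51.7 CPM in engaged cells of the M9 libraries, against 40.8, 33.3, 30.5 and 22.6 in other cells of the same libraries (log2 difference 0.65, SE 0.09, adjusted p = 6.43e-05). Tipin (log2 difference 0.37, SE 0.06, adjusted p = 0.000173), Hells (log2 difference 0.44, SE 0.07, adjusted p = 0.000192), Nasp (log2 difference 0.42, SE 0.07, adjusted p = 0.000318), Mcm3 (log2 difference 0.41, SE 0.07, adjusted p = 0.000653) and Mcm5 (log2 difference 0.33, SE 0.06, adjusted p = 0.000797) came next by p. Dtl (0.30), Cdc6 (0.32), Mcm2 (0.38), Exo1 (0.41), Dscc1 (0.26), Fen1 (0.19) and Rrm2 (0.20) were also called, as log2 differences. By function 10 of 11 genes of helicase loading and its control, 3 of 6 synthesis genes and 2 of 3 nucleotide suppliers rose. So did 5 of 10 fork protection and repair genes, 4 of 7 chromatin genes and 1 of 2 regulators. Brip1 (-0.01), Clspn (0.06), Tyms (0.09) and E2f8 (0.10) were not called. Engaged and other values overlapped in most members. Called at equal depth, 1 member, Ung, was called (log2 difference 0.30) and the median was -0.02. With dividing cells called at 4 UMIs, 6 were called higher (Mcm2, Mcm3, Ung, Hells, Tipin and Nasp) and 2 lower (Clspn and Brip1). Genes called in either direction numbered 1230 at equal depth and 2768 at 4 UMIs, against 3718 in the main fit. Median UMIs were 55324 and 69596 in the C6M9 libraries and 32781 and 45293 in the M9 libraries in engaged dividing cells, against 27340.5 and 34766 in the C6M9 libraries and 19702 and 23796 in the M9 libraries in other dividing cells. Of 72 other replication genes 39 were called higher and 2 lower, those of smallest p being Dctpp1 (0.58), Cdc25a (0.44), Pold2 (0.46) and Orc2 (0.43).

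**Figure D4:**
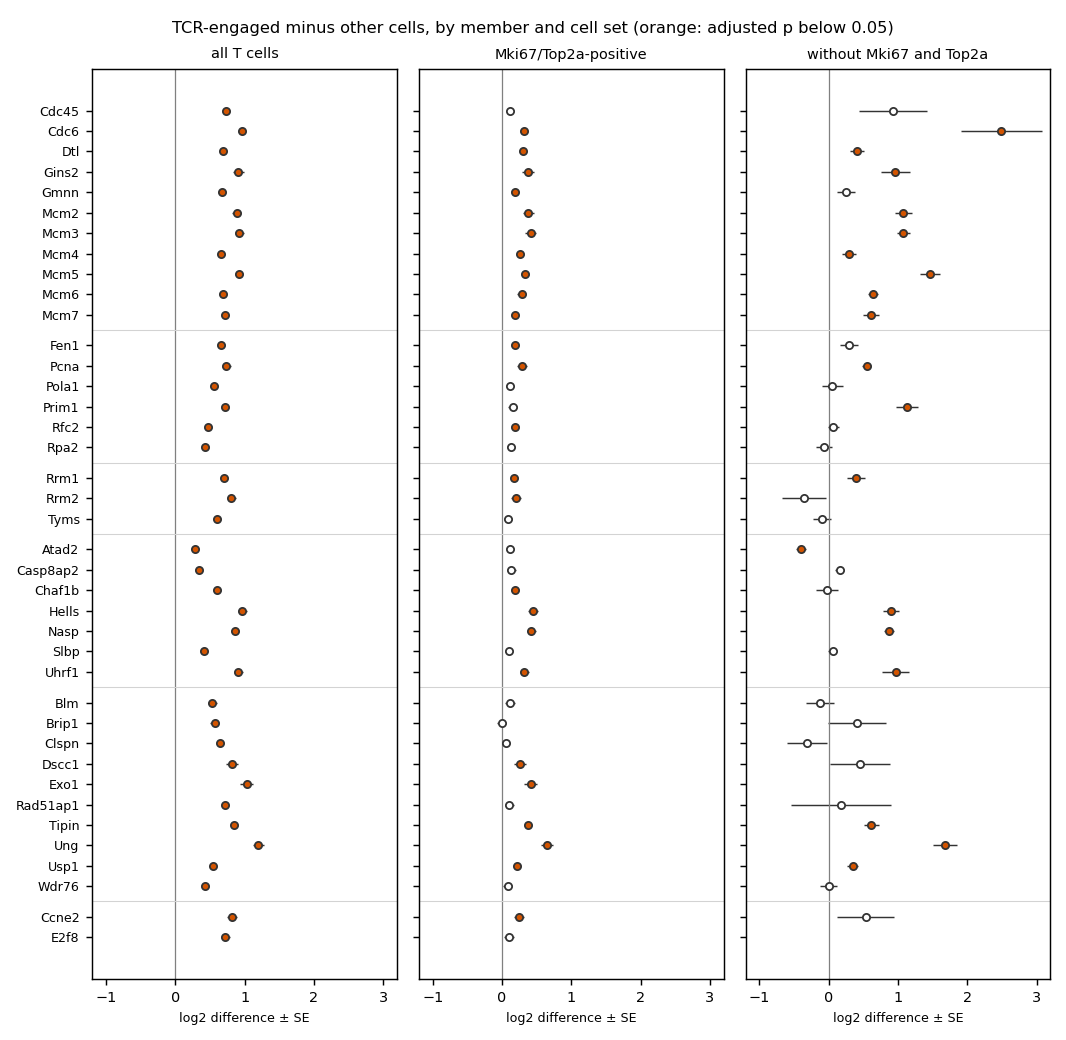
Log2 difference between TCR-engaged and other cells on the horizontal axis for each member, with bars for the SE, in all T cells (left), Mki67/Top2a-positive cells (middle) and cells without Mki67 and Top2a (right); orange marks an adjusted p below 0.05, and grey lines part the functional groups. The right panel spreads the members from -0.40 (Atad2) to 2.49 (Cdc6), where the left panel has all 39 and the middle panel 38 right of 0; at equal depth of the engagement call, 26 of 39 are positive in all T cells and 16 of 39 in dividing cells.

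Between the study's groups, 38 of 39 replication genes had a higher level in C6M9 than in M9 over all T cells, and 3 of them passed the test. Of 39 members 3 were called higher and 0 lower, where 1.6% of 13548 genes were called higher and 4.26% lower. The median log2 difference was 0.32, against -0.02 over all genes, and 27 members had an unadjusted p below 0.05. Rrm2, on chr12:24708241-24714146 (plus strand), had 165 and 138 CPM in the C6M9 libraries and 94.0 and 98.7 in the M9 libraries (log2 difference 0.65, SE 0.10, adjusted p = 0.0137). Exo1, on chr1:175880581-175913489, had 13.7 and 10.96 CPM in the C6M9 libraries and 7.99 and 8.54 in the M9 libraries (log2 difference 0.58, SE 0.13, adjusted p = 0.0413). Cdc45, on chr16:18780447-18811987, had 25.8 and 20.9 CPM in the C6M9 libraries and 16.3 and 16.1 in the M9 libraries (log2 difference 0.52, SE 0.12, adjusted p = 0.0414). Both C6M9 libraries lay above both M9 libraries in these genes. Tyms, with 106 and 88.2 CPM in the C6M9 libraries and 70.5 and 73.6 in the M9 libraries, just missed the threshold (log2 difference 0.43, SE 0.10, adjusted p = 0.0511), and so did Ung, with 31.1 and 30.7 CPM in the C6M9 libraries and 22.5 and 25.1 in the M9 libraries (log2 difference 0.38, SE 0.09, adjusted p = 0.0544). Blm (-0.00), Mcm6 (0.09) and Dtl (0.09) had the smallest log2 differences. The count rested on single libraries: without C6M9 replicate 1 it was 0, without C6M9 replicate 2 it was 4, without M9 replicate 1 it was 5 and without M9 replicate 2 it was 17, and DESeq2 called 19.

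In these sums, more dividing cells and more RNA per dividing cell cannot be told apart, so the shares stand beside it. Of T cells as counted, 34.3% and 38.8% in the C6M9 libraries and 28.4% and 37.6% in the M9 libraries were dividing. At the other cut, 1 or more UMIs of the 2 genes after thinning to 5000, 34.9% and 32.5% in the C6M9 libraries and 29.6% and 30.1% in the M9 libraries were. The summed level of the 39 genes over all T cells was 3099 and 2689 CPM in the C6M9 libraries and 2307 and 2659 CPM in the M9 libraries. The NK and innate list stood at 82.2 to 83.2 CPM in C6M9 and 182 to 186 CPM in M9, nearly all of it Eomes, and the CD4 and regulatory list at 63.8 to 82.8 CPM in C6M9 and 97.3 to 154 CPM in M9. The B cell list stood at 19.9 to 20.1 CPM in C6M9 and 17.8 to 21.7 CPM in M9. Their part in the difference was not tested. Of 72 other replication genes 8 were called higher and 0 lower, with Ccne1 (0.58), Asf1b (0.55), Pole2 (0.50) and Mcmbp (0.38) of smallest p.

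Within dividing cells no member was called between C6M9 and M9. The test in edgeR called 0 of 39 higher and 0 lower, where 0.252% of 12688 genes were called higher and 1.43% lower; 1 member had an unadjusted p below 0.05, and DESeq2 called 0. The median log2 difference was 0.12, with 32 of 39 positive. This lean turned direction without C6M9 replicate 1 (median -0.03, 17 of 39 positive) and with dividing cells called at 4 UMIs (median -0.02, 15 of 39 positive), and the median was 0.25 without C6M9 replicate 2. Rrm2 had 264 and 213 CPM in the C6M9 libraries and 198 and 176 in the M9 libraries (log2 difference 0.35, SE 0.12, adjusted p = 0.239). In cells without Mki67 and Top2a, edgeR and DESeq2 each called 0 of 37 higher and 0 lower, where 2.29% of 11598 genes were called higher and 3.73% lower. There 1 member had an unadjusted p below 0.05, the median was -0.00 and 17 of 37 differences were positive. Of the other replication genes, 0 of 72 were called in dividing cells and Pole2, a polymerase epsilon subunit, was the single one of 68 called in cells without division genes (log2 difference 0.74, adjusted p = 0.0429).

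Among TCR-engaged cells 3 members, Rrm2, Cdc45 and Exo1, were called higher in C6M9 and 0 lower, where 1.5% of 12004 genes were called higher and 3.87% lower. These cells are part of the all-cell sums, so the calls are not independent of those above. Rrm2 had 224 and 188 CPM in the C6M9 libraries and 118 and 144 in the M9 libraries (log2 difference 0.66, SE 0.13, adjusted p = 0.0181). Cdc45 had 36.5 and 27.7 CPM in the C6M9 libraries and 20.7 and 21.0 in the M9 libraries (log2 difference 0.62, SE 0.15, adjusted p = 0.0347). Exo1 had 20.2 and 16.6 CPM in the C6M9 libraries and 10.6 and 13.3 in the M9 libraries (log2 difference 0.64, SE 0.16, adjusted p = 0.0421). All 39 differences were positive, with a median of 0.39, against -0.01 over all genes. The median was 0.23 without C6M9 replicate 1 (37 of 39 positive) and also without M9 replicate 1 (36 of 39 positive). Of the engaged cells 64.7% and 64.6% in the C6M9 libraries and 38.5% and 50% in the M9 libraries were dividing. The engaged cells had median UMIs of 39806 and 47947 in the C6M9 libraries and 18916 and 29292 in the M9 libraries. Their NK and innate markers summed to 89.4 to 91.9 CPM in C6M9 and 209 to 225 CPM in M9, and their CD4 and regulatory markers to 59.1 to 77.1 CPM in C6M9 and 109 to 182 CPM in M9. The part of the dividing share, of depth and of these markers was not tested. Without C6M9 replicate 2 the median was 0.52 and without M9 replicate 2 it was 0.55. The 3 calls depended on the replicate 1 library of each group and were not kept without either. The count of members called rose without replicate 2 of either group. With engagement called at equal depth the count was 21, where 849 genes were called in either direction, against 644 in the main fit. Of 72 other replication genes 6 were called higher, with Ccne1 (0.61), Asf1b (0.62), Mcmbp (0.47) and Ccna2 (0.63) of smallest p.

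**Figure D5:**
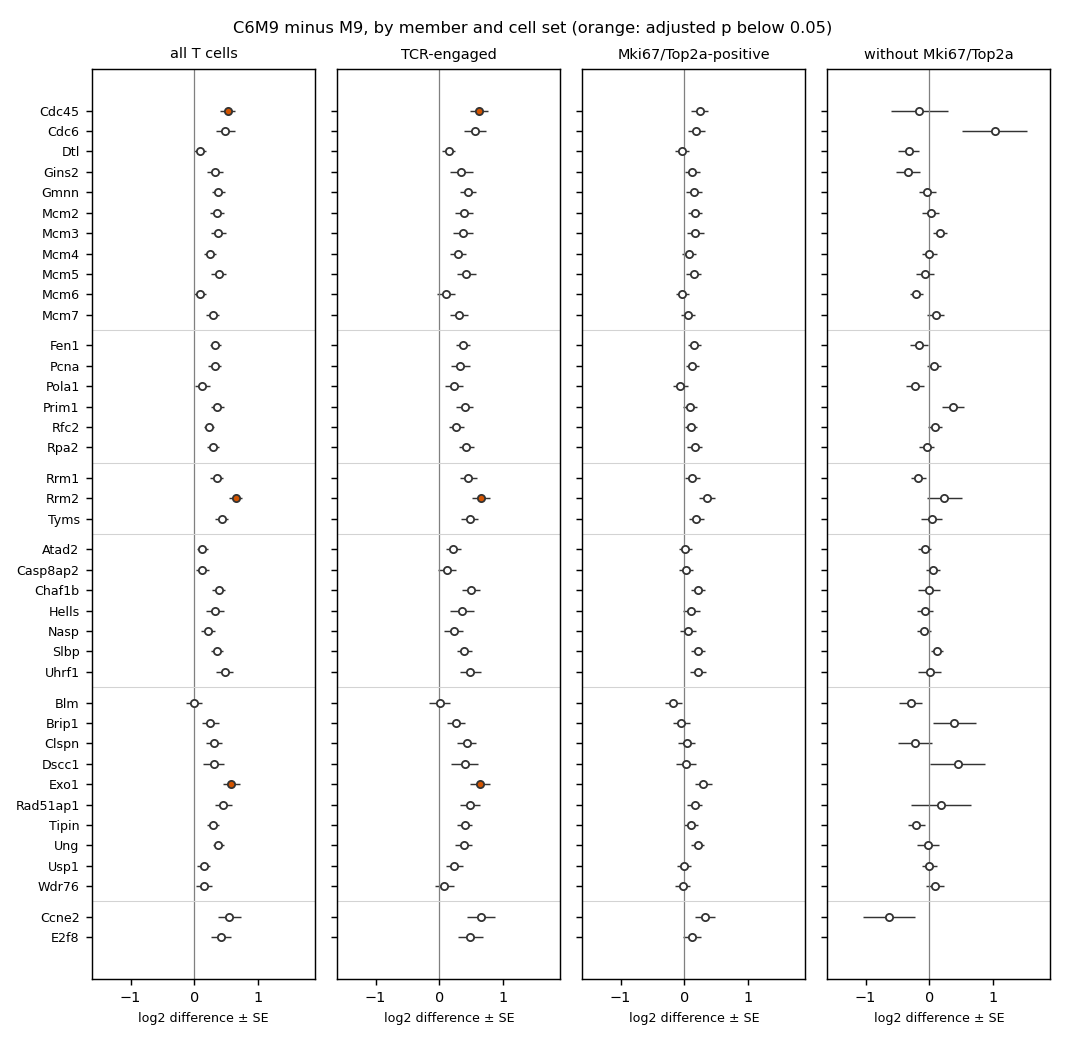
Log2 difference between C6M9 and M9 on the horizontal axis for each member, with bars for the SE, in all T cells, TCR-engaged cells, Mki67/Top2a-positive cells and cells without Mki67 and Top2a; orange marks an adjusted p below 0.05. The 3 orange genes are Cdc45, Rrm2 and Exo1 in the 2 left panels, and no gene is orange in the 2 right panels.

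Whether the engaged minus other difference itself differed between C6M9 and M9 was tested over all T cells with the product of engagement and group. In edgeR 0 of 39 members were called higher and 0 lower, where 0.149% of 12793 genes were called higher and 0.399% lower. The median was -0.03 on the log2 scale, 1 member had an unadjusted p below 0.05, and DESeq2 called 0. The median was -0.22 without M9 replicate 1 (5 of 39 positive) and 0.21 without M9 replicate 2 (38 of 39 positive). The direction thus depended on which M9 library was kept, and the 0 calls do not show that the groups were alike. Of 72 other replication genes 0 were called.

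The members also ordered other cell sets, as a description. Cells with 2 or more UMIs, and 2 or more per 10000, of Gzma and Gzmb, the granzymes of killer cells, held the 39 genes at 5247 and 5369 CPM in the C6M9 libraries and 5309.6 and 5376 CPM in the M9 libraries. These cells numbered 16 to 133 per library, and 88.0% and 82.0% in the C6M9 libraries and 87.9% and 75% in the M9 libraries were dividing. All 39 members were above the library's all-cell level in every library there. The myeloid and dendritic markers summed to 137 and 153 CPM in the C6M9 libraries and 168 and 565 CPM in the M9 libraries in these cells, against 79.1 to 86.7 CPM in all T cells. Plasma cell markers summed to 48.7 to 58.5 CPM in these cells, against 25.8 to 27.3 CPM in all T cells, and T cell markers to 3851 to 4069 CPM, against 4893 to 5404 CPM. Their part in the level was not tested. In cells gated the same way on Il7r, the interleukin 7 receptor of memory cells, the sum was 1508 and 1601 CPM in the C6M9 libraries and 1327 and 1376 CPM in the M9 libraries. On Izumo1r, folate receptor 4, it was 1109.7 and 756 CPM in the C6M9 libraries and 957 and 901 CPM in the M9 libraries, on the interferon-induced Ifit1 and Ifit3 1635 and 1511 CPM in the C6M9 libraries and 1469.9 and 1710.0 CPM in the M9 libraries, and on the killer lectin receptor Klre1 1566 and 1949 CPM in the C6M9 libraries and 1457 and 694 CPM in the M9 libraries. In the Il7r, Izumo1r and Ifit gates all 39 members were below the all-cell level in every library, and in the Klre1 gate 34 were. Cells within none of these gates also had all 39 above it in every library. Their sum was 4278 and 3617 CPM in C6M9 and 2693 and 3356 CPM in M9. Dividing cells made up 22.2 to 30.1% of the Il7r gate, 8.57 to 25.1% of the Izumo1r gate and 18.7 to 27.5% of the Ifit gate. They made up 28.4 to 38.8% of all T cells. The Klre1 cells numbered 12 to 64 and the Izumo1r cells 21 to 796 per library. Cells with more B cell than T cell gene UMIs, had 798 and 867 CPM in the C6M9 libraries and 857 and 1027 CPM in the M9 libraries.

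All 39 members are protein-coding genes in GENCODE release M21 (GRCm38, the build named mm10). In 8 of them, Mcm7, Fen1, Gins2, Cdc45, Ccne2, Rfc2, Dscc1 and E2f8, another counted gene overlaps on the opposite strand, and in Chaf1b 1 overlaps on the same strand. The counting's treatment of strand and overlap is not given in the sources used here, and the values of these 9 are less certain.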

How the data were processed

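Transcripts of sorted CD8 T cells were measured in 4 libraries. The deposited matrices hold raw UMI counts per gene and barcode, made with Cell Ranger 6.0.0 on mm10, per the file headers and the submitters' processing notes. The annotation release, strand and intron settings were not given in the sources used here. Of 11113 barcodes, 10324 met the minimum of 500 genes and 1000 UMIs and the limit of 10% mitochondrial UMIs. Scrublet (scanpy 1.11.5, seed 7) marked under 0.5% of cells on its own threshold, so the highest scores were removed at 0.8% per 1000 barcodes, 277 cells. Cells with 5 or more UMIs of 6 B cell genes (252, most of them T cells with B cell RNA; 61 had more B than T gene UMIs) and 9 cells with under 2 T cell gene UMIs were left out. Counts were summed per library and cell set, scaled by TMM and tested two-sided with edgeR 4.0.16 in R 4.3.3 (filterByExpr, quasi-likelihood, trended dispersion), with Benjamini-Hochberg adjustment over all genes at 0.05; comparisons within libraries had the library as a block. CPM are TMM-scaled in tested comparisons and plain UMIs per 1000000 elsewhere. The test was tested on simulated counts. Alternatives were DESeq2 1.42.0, no low-count filter, each library left out, doublets kept, other gates and a replicate block. The B cell alternative was added after the data were seen. Members are given in full by smallest p among those called in each comparison (up to 8), then to show each function; of the 72 other replication genes, the 4 of smallest p are named, except in 1 comparison where part of them is not reported here. The members and all lists were chosen with earlier results of these data known.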

Additional observations from a re-analysis of the deposited data

Results flagged for a closer look

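In 6 cases the sign of the engaged minus other difference was shared by both libraries of each group and opposite between the groups. Whether the groups differ there was not tested. The members were searched for this pattern in every within-library comparison, and how many of all genes show it was not counted. Some of the ratios lay near 0, where the sign carries little weight. Each value is the mean log2 ratio of engaged to other cells in C6M9 minus that in M9. Wdr76 differed by -0.33 in dividing cells, with ratios of -0.14 and -0.00019 in C6M9 and 0.11 and 0.41 in M9. Slbp differed by 0.19 in cells without Mki67 and Top2a, with ratios of 0.15 and 0.18 in C6M9 and -0.04 and -0.01 in M9. Clspn differed by 1.03 in cells without Mki67 and Top2a, with ratios of 0.55 and 0.16 in C6M9 and -0.93 and -0.41 in M9. Chaf1b differed by 0.49 in cells without Mki67 and Top2a, with ratios of 0.11 and 0.40 in C6M9 and -0.12 and -0.34 in M9. Rpa2 differed by 0.62 in cells without Mki67 and Top2a, with ratios of 0.11 and 0.41 in C6M9 and -0.20 and -0.51 in M9. Gmnn differed by 0.67 in cells without Mki67 and Top2a, with ratios of 0.64 and 0.65 in C6M9 and -0.03 and -0.02 in M9. None of the 6 was called in the engaged minus other comparison of those cells, in which 39 members were tested in dividing cells and 37 in cells without Mki67 and Top2a.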

How the results depend on the processing

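Under the alternatives, the S minus M stratum count was 39 throughout, with 2072 to 4742 genes called in either direction. In cells without Mki67 and Top2a, the engaged minus other count stayed between 16 and 20, with 2311 to 3791 genes called in either direction. Between C6M9 and M9 over all T cells, where 3 members were called, DESeq2 called 19, no filter on low counts 26, doublets kept 8, and the fits without a library 0 to 17. Genes called there in either direction rose as well, from 794 in the main fit to 1022 with DESeq2, 1928 with no filter and 877 with doublets kept. The replicate block called 5 there among 812 genes, 2 in TCR-engaged cells among 528, and 0 in both other group comparisons. No label says what like-numbered libraries share. Their deviations from the group means correlated at -0.017 over 13548 genes, and their median UMIs per cell were alike (13860 and 13172 in replicate 1, 20375 and 19941 in replicate 2). In TCR-engaged cells 3 members were also called, among 644 genes. DESeq2 called 7 among 543 genes, no filter 22 among 1295, and doublets kept 5 among 676. The gate at 3 UMIs called 12 among 797 genes and the equal-depth gate 21 among 849. In dividing cells, where 0 were called among 214 genes, no filter called 1 among 788. In cells without division genes the median ranged over -0.07 to 0.08 in the fits without a library. For engaged minus other, the equal-depth gate called 7 over all T cells among 3439 genes and 1 in dividing cells among 1230. In dividing cells, where 25 were called among 3718 genes, DESeq2 called 15 among 2262 and the gate at 3 UMIs 16 among 3796. Mki67 and Top2a at 4 UMIs called 8 (6 higher, 2 lower) among 2768 genes, and the fits without a library 15 to 23 among 2452 to 3564. The B cell gate by more B than T gene UMIs called 18 among 3485. For the group difference in engagement, where 0 were called among 70 genes, the equal-depth gate called 3 among 78. Among the fits without a library the median ranged over -0.22 (M9 replicate 1 left out) to 0.21 (M9 replicate 2 left out). Its sign thus depended on which M9 library was kept. The equal-depth gate gave a median of 0.23.

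At the equal-depth gate these members changed sign over all T cells, as log2 differences: Rrm2 -0.055, Tyms -0.010, Slbp -0.019, Cdc6 -0.00071, Rad51ap1 -0.062, Clspn -0.16, Pola1 -0.0098, Chaf1b -0.064, Rpa2 -0.015, Wdr76 -0.079, Brip1 -0.14, E2f8 -0.10 and Atad2 -0.090. In dividing cells they were Mcm4 -0.023, Rrm1 -0.040, Rrm2 -0.083, Cdc6 -0.082, Uhrf1 -0.011, Dtl -0.00085, Chaf1b -0.13, Ccne2 -0.046, Rfc2 -0.020 and Gmnn -0.030. With Mki67 and Top2a at 4 UMIs they were Mcm7 -0.022, Rrm1 -0.028, Rrm2 -0.024, Fen1 -0.012, Clspn -0.16 and Gmnn -0.015; Clspn was not called at 2 UMIs. In the group difference, Mcm5 was 0.30 at the equal-depth gate, and Pcna ranged over -0.38 to 0.23 without a library. Apart from the gates, whose construction changes which cells are called, the cause was not tested. Single members were counted where they were called in the main fit, or changed sign with a call in either fit. Of these 1334 values under alternatives, 1173 kept the side of the threshold, 128 lost the call, 2 gained it and 31 changed sign. Other members not called in the main fit are left out, so calls gained under an alternative mostly fall outside this count. A change of sign without a call was not counted.

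With 2 libraries a group, a fit without 1 library assumes that the lone library of its group varies like the others. With cells pooled from several mice, spread between mice is not measured. The Mki67/Top2a and engagement gates depend on depth, low members in cells without division genes rest on few UMIs, and the equal-depth call uses cells of 5000 or more UMIs.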
